A study of Rattus norvegicus with 18 samples.

Results

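Transcripts of 8 genes of the DNA replication fork were followed in 2 rat thyroid cell lines given thyroid-stimulating hormone (TSH). The genes were Pcna, Mcm5, Mcm6, Prim1, Prim2, Pola1, Tyms and Dnmt1. Every probe set that the platform annotation assigned to one of these symbols was taken, with no condition on its signal, which gave 14 of the 8740 probe sets tested and 8 of the 4736 genes named on the array. Mcm6 had 3 probe sets, Pcna, Prim1, Prim2 and Dnmt1 had 2 each, and Mcm5, Pola1 and Tyms had 1 each. Probe sets of 1 gene read the same transcript and were not counted as replicates.

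A replication fork opens the double helix with the MCM helicase ring, to which Mcm5 and Mcm6 contribute subunits. Primase, made of the catalytic subunit Prim1 and the regulatory subunit Prim2, lays RNA primers that are extended within one complex by the catalytic subunit of DNA polymerase alpha, Pola1. Pcna encodes the sliding clamp that holds polymerases and many other enzymes on the template, Tyms makes the thymidylate for new DNA, and Dnmt1 restores methyl groups on the daughter strand. Transcripts of such genes are known to rise as cells prepare for S phase, in part through E2F transcription factors, and TSH is a known growth signal for rat thyroid cells in culture.

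FRTL5 is a line of differentiated rat thyrocytes. It was cultured without TSH in 5H medium for 5 days before bovine TSH was added at 0.1 U/L. FRT/TSHR is a de-differentiated rat thyroid line, grown in Coon's modified F12 medium, that was given 1 U/L and whose name states that it carries the TSH receptor. Both lines spent 12 h in serum-free medium before stimulation and were sampled at basal, 30 min and 17 h, with 3 biological replicates a group and 18 arrays in all. Line, medium and TSH dose differ together and cannot be told apart, and both TSH times of a line share 1 basal group, with no untreated group for either time. Values are log2 RMA signals, and a difference of 1 is 2-fold.

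Whole-array facts that touch these genes are few. The median signal of an array lay between 5.47 and 5.59. Of 11 listed thyrocyte markers 7 were measured. Their summed linear signal was 2184 to 5273 on FRTL5 arrays and 719 to 829.9 on FRT/TSHR arrays. Thyroglobulin (Tg) was at 11.21 ± 0.70 and 4.17 ± 0.19 at basal (SD, n = 3). The other markers differed less. Basal Tshr was 6.56 in FRTL5 and 6.60 in FRT/TSHR, and Pax8 was 9.79 and 8.58. Slc5a5, Nkx2-1, Foxe1 and Dio1 were also lower in basal FRT/TSHR. Marker sums over all groups were 129 to 165 for C cells, 445 to 899 for fibroblasts, 112 to 146 for endothelium and 170 to 309.6 for leukocytes, the last with 170 to 202 in FRTL5 and 194 to 309.6 in FRT/TSHR. The measured leukocyte markers did not move together. At basal Cd14 was higher in FRT/TSHR than in FRTL5 (6.95 against 6.66), while Lyz2 (4.11 against 4.93) and Ptprc (5.87 against 5.99) were lower. The part of these markers in the results was not tested. On the FRTL5 arrays numbered 1 the beta-actin signal at the 3' end exceeded that at the 5' end by 1.13 to 1.22, against at most 0.28 on any other array. On the FRT/TSHR arrays numbered 1 of the 2 TSH groups the fork genes themselves were low, as set out with that line. Detection above background was not measured, and the probe sets of Pola1 and Tyms and 1 of Prim1 (U67994_at) had means below the median probe set, 5.545.

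The DNA just upstream of these genes is shown because E2F sites in such stretches are a known feature of genes that rise together before S phase. Windows from 250 bases before to 50 bases after the annotated start were taken from RefSeq (build GRCr8), and 8 of 8 genes were matched. The E2F core was searched as TTTCCCGC, TTTCGCGC, TTTGCCGC and TTTGGCGC on both strands. It was found in 5 of the 8 windows (Mcm5, Mcm6, Pola1, Tyms and Dnmt1), against 2.14% of the 33469 windows in the RefSeq table and 3.12% of the 4192 windows of genes on the array. Each 30-base stretch below has the match in capitals, read 5' to 3' on the gene's strand.
Mcm5, chr19:13488591-13488620, plus strand: gctcagaagTTTCGCGCCAAAacgtcccgc
Mcm5, chr19:13488794-13488823, plus strand: ccaggttggttTTTCCCGCgaaagtcggct
Mcm6, chr13:42404471-42404500, minus strand: gcgtctgctTTTGGCGCGAAAttagcgtgt
Pola1, chrX:62342509-62342538, minus strand: gtcatcacaggGCGCCAAAtgcagtcccgc
Tyms, chr9:120776102-120776131, minus strand: aaggtgcgggtTTTGGCGCcgactacactg
Dnmt1, chr8:27762798-27762827, minus strand: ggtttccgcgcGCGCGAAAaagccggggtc
The upstream Mcm5 match and the Mcm6 match each hold a core on both strands that overlap by 4 bases, so their capitals run over 12 bases. The Dnmt1 match lies after the annotated start, at 25 to 32 bases, and the other matches lie before it. No core stood in the windows of Pcna, Prim1 or Prim2, which says only that these letters are not in those 300 bases. A match is a description of the sequence, not a measured binding site.

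The shares of the other motifs lay nearer to those of other windows. The CCAAT box (CCAAT, bound by NF-Y) stood in 6 of 8 windows against 37.5% of all and 37.8% of array genes, and the GC box (GGGCGG, bound by Sp1) in 4 against 33.1% and 55.7%. The cAMP response element TGACGTCA, the site of CREB, stood in 1 (Mcm5) against 1.83% and 2.43%, and its shorter form TGACG, which every full element contains, in 3 (Pcna, Mcm5 and Pola1) against 21.2% and 28.3%. The CHR element TTTGAA of many mitotic genes stood in 0 of 8, against 18.3% and 12%. The windows of the fork genes had a median GC content of 59.3%, against 59.7% for array genes and 51.7% for all windows. The 250 bases before the start are printed for Tyms and Pcna, the genes with the smallest p in FRTL5 cells at 17 h, and for Mcm5, picked after its matches were seen because it holds an E2F core, CCAAT boxes and the full cAMP element. Capitals mark every match to the motifs above.
Tyms, chr9:120776084-120776333, minus strand: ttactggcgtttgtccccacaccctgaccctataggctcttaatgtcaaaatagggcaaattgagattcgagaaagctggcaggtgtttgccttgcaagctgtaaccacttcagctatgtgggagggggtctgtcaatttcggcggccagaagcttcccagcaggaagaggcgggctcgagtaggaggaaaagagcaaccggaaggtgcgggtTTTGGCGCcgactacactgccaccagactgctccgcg
Pcna, chr3:139955821-139956070, minus strand: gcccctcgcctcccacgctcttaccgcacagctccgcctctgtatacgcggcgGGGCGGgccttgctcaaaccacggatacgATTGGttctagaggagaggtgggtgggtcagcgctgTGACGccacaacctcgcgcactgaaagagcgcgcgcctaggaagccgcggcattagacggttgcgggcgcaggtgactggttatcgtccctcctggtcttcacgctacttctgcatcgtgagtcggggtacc
Mcm5, chr19:13488563-13488812, plus strand: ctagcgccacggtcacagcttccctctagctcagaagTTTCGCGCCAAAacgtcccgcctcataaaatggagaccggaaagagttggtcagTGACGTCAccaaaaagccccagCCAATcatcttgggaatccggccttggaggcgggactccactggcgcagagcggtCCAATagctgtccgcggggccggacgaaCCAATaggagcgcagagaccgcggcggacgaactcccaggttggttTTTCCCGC
The Tyms stretch holds 1 E2F core close to the start and none of the other motifs. The Pcna stretch holds a GC box, a CCAAT box on the opposite strand and 1 short cAMP element. In Mcm5 the full cAMP element lies between the upstream E2F core and 3 CCAAT boxes, and another E2F core ends at the base before the start.

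**Figure D1:**
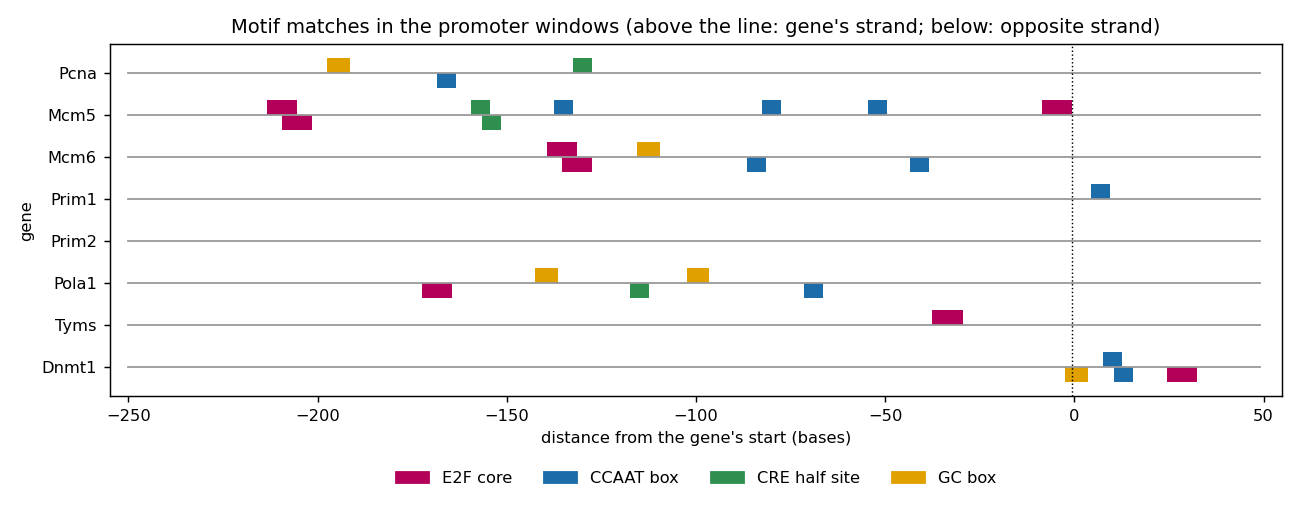
Positions of the motif matches in the windows of the 8 genes, with the distance from the annotated start in bases on the horizontal axis and 1 line per gene. Boxes above a line are on the gene's strand and boxes below it on the opposite strand. E2F cores stand in 5 of 8 windows and Prim2 has no match to any motif.

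After 17 h of TSH the transcripts of all 8 genes were higher in FRTL5 cells. At least 1 probe set of every gene passed, 12 of 14 in all, at an adjusted p under 0.05 (limma, adjusted over 8740 probe sets), where 1.64% of all probe sets were called higher. The rises ran from 1.63-fold for Prim2 to 3.67-fold for Pcna. Over the 14 probe sets the median log2 difference was 1.24, against 0.01 over all probe sets, and all 14 were above 0, as were 53.2% of all. In 13 of 14 the 17 h arrays lay wholly above the basal arrays, as in 7.6% of all probe sets. The fork genes were chosen with earlier results of these data known, so these shares are a description. In these bulk samples more cells in S phase and more RNA per cell cannot be told apart, and neither can TSH and the hours passed.

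**Figure D2:**
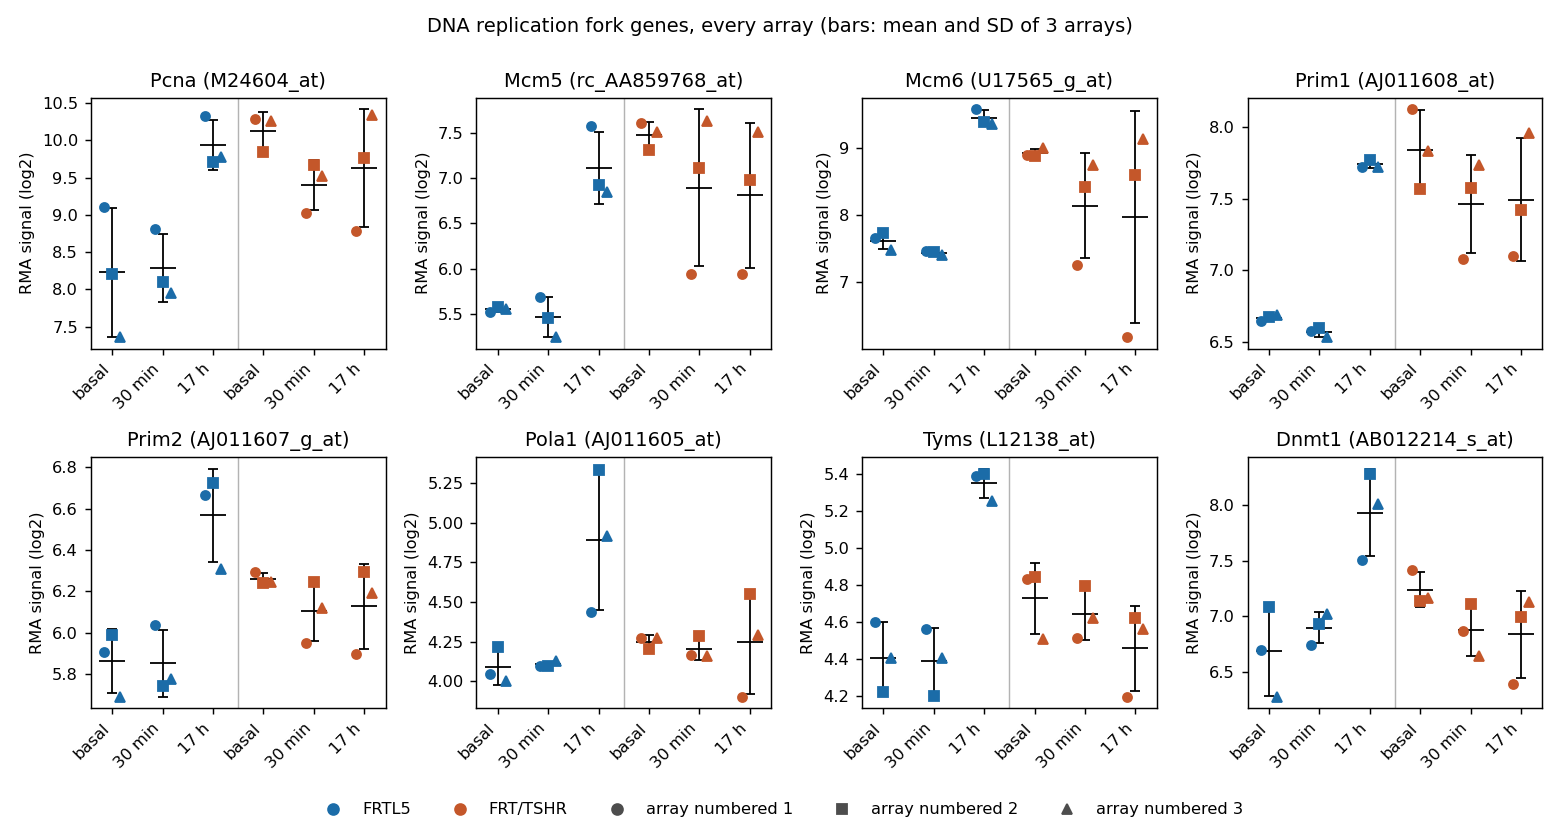
Log2 RMA signal of the probe set with the highest mean for each gene on all 18 arrays, FRTL5 left of the grey line and FRT/TSHR right of it. Points are arrays, with the shape giving the array number, and bars are the mean and SD of 3 arrays; each panel has its own vertical axis, which does not start at 0. The FRTL5 17 h arrays stand above the FRTL5 basal and 30 min arrays in all 8 panels.

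The sliding clamp gene moved most among the called probe sets. Pcna (M24604_at) read 9.10, 8.21 and 7.36 on the basal arrays numbered 1, 2 and 3 of FRTL5, then 8.80, 8.10 and 7.95 at 30 min and 10.33, 9.71 and 9.78 at 17 h. The 17 h arrays were all above the basal ones, which were themselves widely spread, with basal array 3 the lowest of the 9. The rise was 1.71 ± 0.41 on the log2 scale (SE), or 3.28-fold, with an adjusted p of 0.0274. Its other probe set, M24604_g_at, had 7.58, 6.71 and 6.93 at basal, 7.50, 7.06 and 6.97 at 30 min and 9.06, 8.93 and 8.85 at 17 h. These arrays were closer together, and the rise was 1.87 ± 0.33, or 3.67-fold (adjusted p = 0.00452). When the 6 arrays were left out in turn, M24604_g_at passed each time, while M24604_at passed in 1 fit, without basal array 1, and had an adjusted p of 0.0605 to 0.121 in the others.

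Both helicase genes rose. Mcm5 read 5.52, 5.58 and 5.55 at basal, 5.69, 5.45 and 5.24 at 30 min and 7.58, 6.92 and 6.85 at 17 h. Its basal arrays agreed closely, and each 17 h array stood more than a log2 unit above them. The difference was 1.56 ± 0.38, or 2.96-fold (adjusted p = 0.0309), and it passed in 0 of the 6 fits with an array left out (adjusted p = 0.0612 to 0.117).

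The 3 probe sets of Mcm6 gave like differences but not the same call. U17565_g_at went from 7.65, 7.73 and 7.48 at basal through 7.47, 7.45 and 7.40 at 30 min to 9.58, 9.39 and 9.37 at 17 h. All 17 h arrays were far above the others, yet the difference of 1.82 ± 0.52 (3.54-fold) had an adjusted p of 0.0748. The error of this fit is shared over 18 arrays, and the SD of this probe set was 0.12 in FRTL5 at 17 h but 1.58 in FRT/TSHR at 17 h. Fitted on the 6 FRTL5 arrays alone it gave the same difference with an SE of 0.12 and an adjusted p of 0.00511. rc_AI639082_s_at had 6.65 to 7.42 at basal and 8.38 to 9.54 at 17 h, a rise of 1.72 ± 0.43 (adjusted p = 0.0354). U17565_at had 6.05 to 6.31 and 7.39 to 7.85, a rise of 1.41 ± 0.35 (adjusted p = 0.0333). Neither of these calls was kept in any of the 6 fits without 1 array (adjusted p = 0.0508 to 0.148).

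In the primase and polymerase alpha complex the 3 subunits among the fork genes rose. Pola2, a further subunit outside the fork genes, had 0.64 ± 0.32 and did not pass (limma, adjusted p = 0.435). Prim1 (AJ011608_at), the subunit that makes the primer, read 6.64, 6.67 and 6.69 at basal, 6.58, 6.60 and 6.53 at 30 min and 7.73, 7.77 and 7.72 at 17 h. The 3 arrays of each time nearly coincided and the 17 h arrays stood clear of the rest. The rise was 1.07 ± 0.19, or 2.1-fold (adjusted p = 0.00539), and it passed in all 6 fits without 1 array. U67994_at, of lower signal, went from 4.46 to 4.81 at basal to 5.54 to 6.07 at 17 h, a rise of 1.22 ± 0.31 (adjusted p = 0.0406) that passed in 0 of those fits (adjusted p = 0.0582 to 0.132). Prim2 rose least. Its AJ011607_g_at had 5.91, 5.99 and 5.69 at basal, 6.04, 5.74 and 5.77 at 30 min and 6.67, 6.73 and 6.31 at 17 h. The lowest 17 h array was above the highest basal array by a small margin, and the rise was 0.71 ± 0.14, or 1.63-fold (adjusted p = 0.00882). AJ011607_at rose by 0.80 ± 0.17 (adjusted p = 0.0143). Without 17 h array 2 both Prim2 calls were lost (adjusted p = 0.0504 and 0.0734), and that of AJ011607_at also without basal array 3 (adjusted p = 0.0613).

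Pola1, the polymerase subunit, read 4.05, 4.22 and 4.0 at basal, 4.10, 4.10 and 4.13 at 30 min and 4.44, 5.33 and 4.92 at 17 h. The 17 h arrays were spread over almost a log2 unit, with array 1 the lowest, and did not overlap with basal. The rise was 0.81 ± 0.18, or 1.75-fold (adjusted p = 0.0193). It passed without basal array 2 or 17 h array 1 and in 0 of the other 4 fits (adjusted p = 0.0562 to 0.093). In a fit that dropped the FRTL5 arrays numbered 1, those with the large beta-actin difference, it was 1.01 ± 0.18 (adjusted p = 0.00942).

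Tyms had the smallest p of the 14. It read 4.60, 4.22 and 4.41 at basal, 4.56, 4.20 and 4.40 at 30 min and 5.39, 5.40 and 5.26 at 17 h. The basal and 30 min arrays of the same number were almost equal, and the 17 h arrays stood together above them. This thymidylate synthase transcript rose by 0.94 ± 0.14, or 1.92-fold (adjusted p = 0.00181), and passed in all 6 fits without 1 array.

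The probe sets of Dnmt1 disagreed. AB012214_s_at read 6.70, 7.09 and 6.27 at basal, 6.74, 6.93 and 7.02 at 30 min and 7.51, 8.29 and 8.01 at 17 h. The 17 h arrays were above all others, and the rise of this maintenance methyltransferase was 1.25 ± 0.23, or 2.38-fold (adjusted p = 0.00648), which passed in all 6 fits without 1 array. D64060_s_at read 5.40, 5.47 and 5.73 at basal and 5.36, 6.38 and 6.49 at 17 h, so that 17 h array 1 lay below the lowest basal array. Its difference was 0.54 ± 0.21 (adjusted p = 0.252). When the FRTL5 arrays numbered 1 were dropped it was 0.83 ± 0.14 (adjusted p = 0.00578).

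The calls varied with the arrays in the fit, and so did some single differences, such as 0.59 to 1.03 for Pola1 and 0.33 to 0.90 for Dnmt1 D64060_s_at with an array left out. Leaving out basal array 1, 2 or 3 gave 7, 7 and 5 calls, and leaving out 17 h array 1, 2 or 3 gave 8, 4 and 6, while the median difference stayed between 1.12 and 1.29. Pcna (M24604_g_at), Prim1 (AJ011608_at), Tyms and Dnmt1 (AB012214_s_at) passed in all 6. Fitting the 6 FRTL5 arrays alone called 7, of which 6 were among the 12. With the replicate number as a block within each line, all 14 probe sets passed. Without the FRTL5 arrays numbered 1, which had the large beta-actin difference, 9 passed: Dnmt1 D64060_s_at was gained, and Mcm5 (adjusted p = 0.195), Mcm6 rc_AI639082_s_at (0.139) and U17565_at (0.148) and Prim1 U67994_at (0.139) were lost.

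At 30 min of TSH the fork genes of FRTL5 were close to basal. Of the 14 probe sets 0 passed, where 0.24% of all were called, and 0 had an unadjusted p under 0.05 in limma, against 2.76% of all. There were 5 above and 9 below basal, and 2 lay wholly below it (Mcm6 U17565_g_at and Prim1 AJ011608_at), as did 2.91% of all, with differences between -0.18 (Mcm6, U17565_g_at) and 0.21 (Dnmt1, AB012214_s_at). The interval of the Prim1 difference (AJ011608_at), -0.51 to 0.31 at 95%, excluded a rise of the size seen at 17 h, and so did that of Tyms, -0.32 to 0.28. From 30 min to 17 h 13 probe sets of all 8 genes rose, where 1.86% of all did, with a median of 1.26 and up to 2.00 ± 0.52 for Mcm6 (U17565_g_at, adjusted p = 0.0413). Only Dnmt1 D64060_s_at did not pass (0.54 ± 0.21, adjusted p = 0.244). Leaving out 30 min array 1, 2 or 3 gave 10, 4 and 6 calls, and leaving out a 17 h array gave 8 each time.

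Before TSH the de-differentiated line already held more of these transcripts. All 14 probe sets were higher in basal FRT/TSHR than in basal FRTL5 cells, as were 43.2% of all, with a median log2 difference of 0.99, against -0.04 over all probe sets. Of them 7 passed, in Pcna, Mcm5, Prim1 and Prim2, where 13.3% of all probe sets were called higher, and in 11 the arrays of the lines did not overlap, as in 17.5% of all. Pcna and Mcm5 differed most, and Dnmt1 (D64060_s_at) and Pola1 least.

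Pcna (M24604_at) read 10.29, 9.84 and 10.26 in basal FRT/TSHR cells, all above the 7.36 to 9.10 of basal FRTL5, a difference of 1.90 ± 0.41, or 3.74-fold (adjusted p = 0.00198). M24604_g_at was 4.89-fold higher (2.29 ± 0.33, adjusted p = 5.49e-05). Mcm5 had 7.61, 7.32 and 7.51, well clear of the 5.52 to 5.58 of FRTL5, and was 3.81-fold higher (1.93 ± 0.38, adjusted p = 0.001). Prim1 (AJ011608_at) had 8.13, 7.57 and 7.84 and was 2.26-fold higher (1.18 ± 0.19, adjusted p = 0.000198). The Prim2 differences were smaller, 0.40 ± 0.14 for AJ011607_g_at (adjusted p = 0.0434) and 0.69 ± 0.17 for AJ011607_at (adjusted p = 0.00558). With each of the 6 basal arrays left out in turn, AJ011607_g_at passed in 1 fit, without FRTL5 array 2, and had an adjusted p of 0.0695 to 0.178 in the others. Prim1 U67994_at was lost without FRT/TSHR array 1 (adjusted p = 0.0518), and the other 5 calls passed in all 6.

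Mcm6 did not pass although none of its arrays overlapped between the lines. U17565_g_at read 8.89, 8.88 and 9.0 in basal FRT/TSHR against 7.48 to 7.73 in FRTL5, a difference of 1.30 ± 0.52 (adjusted p = 0.0849). The other Mcm6 probe sets had 1.10 ± 0.43 and 0.87 ± 0.35 (adjusted p = 0.0747 and 0.0836). Tyms had 4.83, 4.85 and 4.51 and overlapped with FRTL5 (0.32 ± 0.14, adjusted p = 0.125), as did Pola1 with 4.27, 4.20 and 4.27 (0.16 ± 0.18, adjusted p = 0.614). Dnmt1 had 7.42, 7.14 and 7.16 for AB012214_s_at (0.56 ± 0.23, adjusted p = 0.0998) and differed by 0.11 ± 0.21 for D64060_s_at (adjusted p = 0.791).

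The levels reached by FRTL5 at 17 h were set beside those of unstimulated FRT/TSHR cells as a description, with no test. For Pcna, Mcm5 and Prim1 the FRTL5 17 h means were near or below the FRT/TSHR basal means, 9.94 against 10.13, 7.11 against 7.48 and 7.74 against 7.84 (M24604_at, Mcm5 and AJ011608_at). For Mcm6, Pola1, Tyms and Dnmt1 they were above, 9.44 against 8.92, 4.90 against 4.25, 5.35 against 4.73 and 7.94 against 7.24 (U17565_g_at, Pola1, Tyms and AB012214_s_at). Of 14 probe sets the FRTL5 17 h arrays lay wholly above in 7, wholly below in 1 (Pcna, M24604_g_at) and overlapped in 6.

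In FRT/TSHR cells no fork gene rose with TSH. At 17 h all 14 probe sets were below basal, where 53.8% of all were above, with a median of -0.38 and a range from -0.95 (Mcm6, U17565_g_at) to -0.0013 (Pola1), and 0 passed in limma, where 0% of all probe sets were called. An unadjusted p under 0.05 was reached by 0 of 14, against 1.24% of all, and 1 lay wholly below basal (Dnmt1, AB012214_s_at), as did 2.67%. At 30 min 13 of 14 were below basal, where 58.1% of all were above, with a median of -0.44, and 0 passed (0% of all), while 1 had an unadjusted p under 0.05 (Pcna, M24604_g_at), against 2.38% of all. At 30 min 6 probe sets lay wholly below basal, as did 2.4% of all. Between 30 min and 17 h 0 passed (0% of all) and 0 had an unadjusted p under 0.05, against 2.05% of all, with 7 higher and 7 lower and a median of 0.0044.

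At each TSH time FRT/TSHR array 1 was the lowest of its group in the genes below, and 17 h array 3 was the highest of its group. Mcm6 (U17565_g_at) read 7.26, 8.42 and 8.75 on FRT/TSHR 30 min arrays 1, 2 and 3 and 6.18, 8.60 and 9.14 on the 17 h arrays, against 8.88 to 9.0 at basal. At 17 h array 1 was far below basal, array 2 a little below and array 3 above it, and the mean difference was -0.95 ± 0.52. Mcm5 read 5.94, 7.11 and 7.63 at 30 min and 5.94, 6.98 and 7.51 at 17 h, so array 1 was the low one both times (-0.67 ± 0.38 at 17 h). Pcna (M24604_at) read 9.03, 9.67 and 9.52 at 30 min and 8.78, 9.77 and 10.34 at 17 h, with array 1 again lowest (-0.50 ± 0.41 at 17 h). Prim1 (AJ011608_at) read 7.08, 7.58 and 7.74 and then 7.10, 7.42 and 7.96 (-0.35 ± 0.19 at 17 h). In each of these genes 17 h array 3 was within or above the basal range.

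Prim2 (AJ011607_g_at), Pola1 and Tyms stayed closer to basal in this line, and Dnmt1 (AB012214_s_at) lay below it. Prim2 (AJ011607_g_at) read 5.95, 6.24 and 6.12 at 30 min and 5.90, 6.29 and 6.19 at 17 h, against 6.24 to 6.29 at basal. Its other probe set, AJ011607_at, read 5.60, 5.89 and 5.74 at 30 min, all below the basal 5.91 to 6.17. At 17 h AJ011607_at read 5.43, 6.03 and 5.89. Pola1 had 4.17, 4.29 and 4.16 and then 3.90, 4.55 and 4.29, around its basal 4.20 to 4.27. Tyms had 4.52, 4.80 and 4.62 and then 4.20, 4.62 and 4.56, against 4.51 to 4.85. For these 3 genes 17 h array 1 was the lowest of all 9 FRT/TSHR arrays. Dnmt1 (AB012214_s_at) had 6.87, 7.11 and 6.64 and then 6.39, 7.00 and 7.13, all below the 7.14 to 7.42 of basal, with a 17 h difference of -0.40 ± 0.23. D64060_s_at stayed within 5.50 to 5.82 on all 9 arrays.

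Array 1 was the lowest of its group for 11 of 14 fork probe sets at 30 min and 13 of 14 at 17 h, against 33.5% and 31% of all probe sets. Its median deviation from the mean of the other 2 arrays was -0.57 at 30 min and -0.63 at 17 h for the fork genes, against -0.0065 and 0.013 for all probe sets. For Mcm6 (U17565_g_at) at 17 h that deviation was -2.69, the most negative of all 8740 probe sets on that array, and array 3 of the same group deviated by 1.75, the most positive there. That 17 h array 3 was the highest of its group for 9 of 14 fork probe sets, against 27.4% of all, with a median deviation of 0.81. Of 12 mitosis genes 9 were also lowest on array 1 at each time, and 11 were highest on 17 h array 3. In the basal group array 1 was not low, being the highest for 10 of 14 fork probe sets. With none of the FRT/TSHR arrays numbered 1, a choice made after their values were seen, the 17 h differences of this line ran from -0.17 to 0.18 with a median of -0.02 and 9 of 14 below basal. The 30 min median was then -0.16, with 13 of 14 still below basal, and 0 passed at either time. When single basal or 17 h arrays of this line were left out in turn, the 17 h median ran from -0.61 to -0.07. The beta-actin 3' minus 5' difference of the 2 low arrays was 0.12 and 0.13, and what set them apart was not tested.

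**Figure D3:**
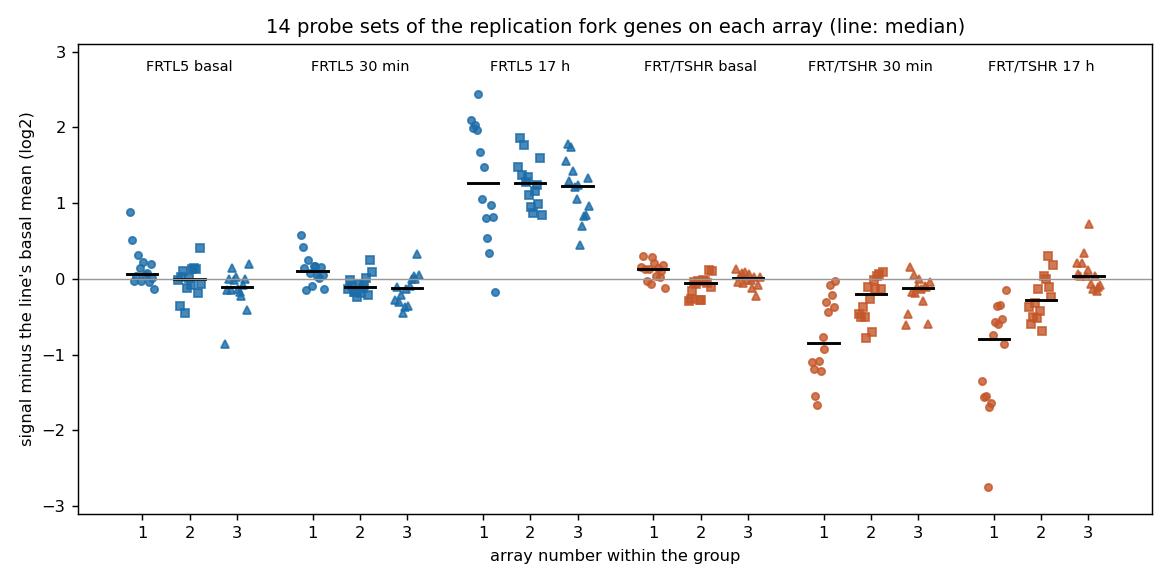
Signal of the 14 probe sets on each array minus the basal mean of the same line (log2), with 1 column per array, the array number on the horizontal axis and a black line at the median. The 3 FRTL5 17 h columns have medians of 1.27, 1.26 and 1.23, while the FRT/TSHR columns numbered 1 at 30 min and 17 h have medians of -0.84 and -0.80.

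The 17 h effects of TSH on the fork genes differed between the lines. The effect in FRT/TSHR was below that in FRTL5 for all 14 probe sets, where 49.7% of all were above, with a median difference of effects of -1.54, and 13 of 14 had an unadjusted p under 0.05 in limma, against 8.38% of all. After adjustment 4 passed, 1 each of Pcna, Prim1, Tyms and Dnmt1, where 0.481% of all probe sets were called lower in FRT/TSHR. The difference of effects was -2.57 ± 0.46 for Pcna (M24604_g_at, adjusted p = 0.0174), -1.42 ± 0.27 for Prim1 (AJ011608_at, adjusted p = 0.0233), -1.21 ± 0.20 for Tyms (adjusted p = 0.0111) and -1.65 ± 0.33 for Dnmt1 (AB012214_s_at, adjusted p = 0.0285). Mcm6 had the largest difference without passing, -2.77 ± 0.74 for U17565_g_at (adjusted p = 0.105), and Mcm5 had -2.23 ± 0.54 (adjusted p = 0.0671). Prim2 had -0.84 ± 0.19 and -1.04 ± 0.24 (adjusted p = 0.0572 and 0.0555) and Pola1 -0.81 ± 0.25 (adjusted p = 0.218). At 30 min the effects differed for 0 of 14 (0.0343% of all), with a median of -0.37 and 0 with an unadjusted p under 0.05, against 2.6% of all.

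The count of 4 was sensitive to the fit, and the direction was not. With the replicate number as a block within each line 12 of 14 passed, Pola1 and Dnmt1 D64060_s_at being the exceptions (adjusted p = 0.0587 and 0.218). With none of the FRT/TSHR arrays numbered 1 the differences ran from -1.99 to -0.56 with a median of -1.22, and 4 passed, of which 2 were among the first 4. Tyms and Dnmt1 (AB012214_s_at) then had adjusted p of 0.0813 and 0.212. Leaving out 1 array gave 2 to 10 calls: 2 each without FRTL5 basal array 3, FRTL5 17 h array 2, FRT/TSHR basal array 1 or 3 and FRT/TSHR 17 h array 1 or 2, 7 without FRTL5 17 h array 1 and 10 without FRT/TSHR 17 h array 3. Pcna (M24604_g_at) and Tyms passed in all 12 of these fits, and Prim1 (AJ011608_at) and Dnmt1 (AB012214_s_at) in 5 each, with adjusted p of up to 0.0658 and 0.0808 without FRT/TSHR basal array 1.

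**Figure D4:**
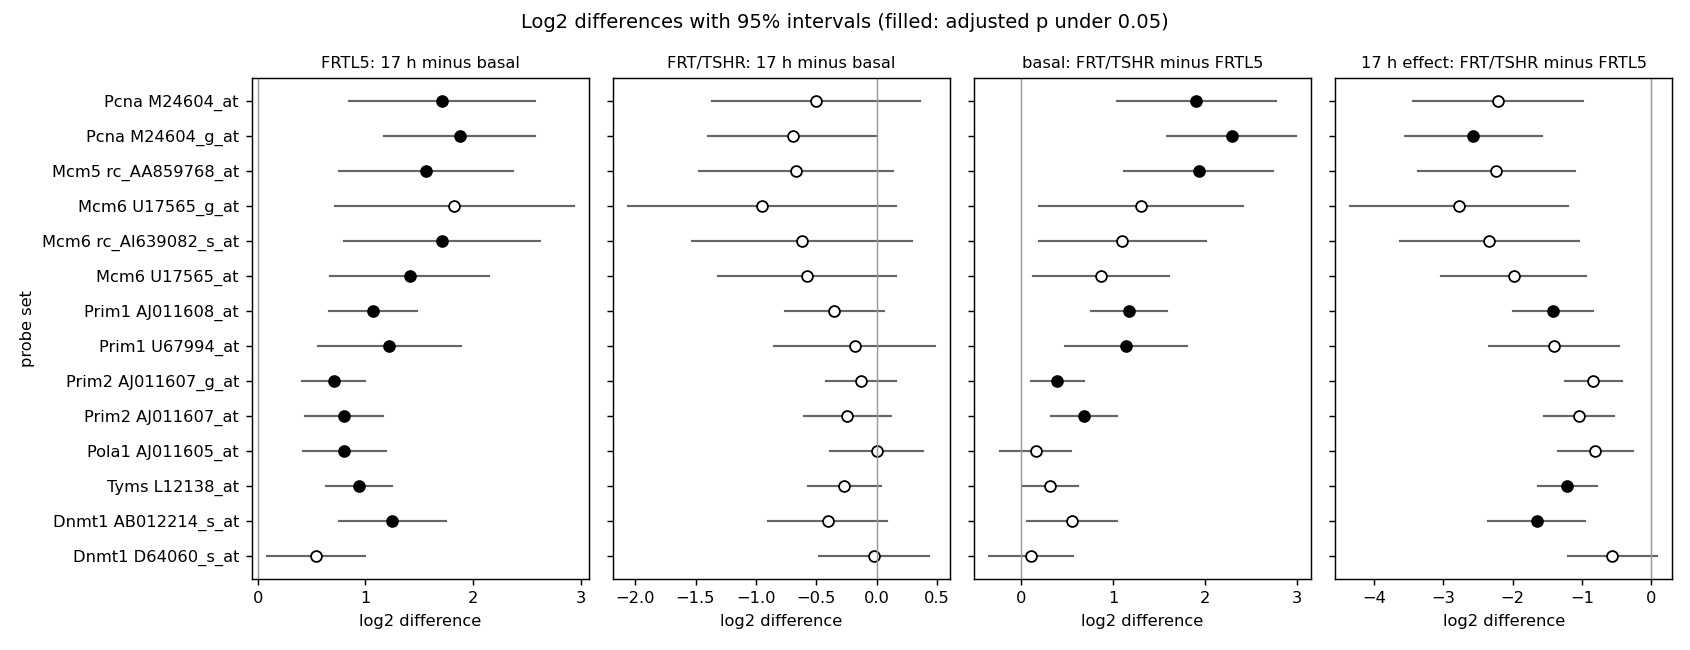
Log2 differences of the 14 probe sets with 95% intervals in 4 comparisons, FRTL5 17 h minus basal, FRT/TSHR 17 h minus basal, basal FRT/TSHR minus basal FRTL5, and the 17 h effect in FRT/TSHR minus that in FRTL5. Filled circles have an adjusted p under 0.05 and the panels have their own horizontal axes. The points of the FRTL5 and basal panels lie to the right of 0 and those of the other 2 to the left of it. Every interval of the FRT/TSHR 17 h panel crosses 0. There are 12, 0, 7 and 4 filled circles in the order named.

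After 17 h of TSH the means of the fork genes were lower in FRT/TSHR, and 1 probe set, Prim2 AJ011607_g_at, was called higher there at basal and lower at 17 h. All 14 probe sets were lower in FRT/TSHR than in FRTL5, where 40.6% of all were higher, with a median of -0.45. Of them 5 passed, where 8.94% of all were called lower, and in 5 the lines did not overlap, as in 17.6% of all. The probe sets that passed were Dnmt1 (AB012214_s_at, -1.10 ± 0.23, adjusted p = 0.00231), Tyms (-0.89 ± 0.14, adjusted p = 0.000198), Mcm6 (U17565_at, -1.12 ± 0.35, adjusted p = 0.0311), Pola1 (-0.65 ± 0.18, adjusted p = 0.0163) and Prim2 (AJ011607_g_at, -0.44 ± 0.14, adjusted p = 0.0305). Mcm6 U17565_g_at did not overlap between the lines and did not pass (-1.47 ± 0.52, adjusted p = 0.0587), while Pola1 passed and overlapped. Pcna, Mcm5 and Prim1 overlapped at 17 h and did not pass (adjusted p = 0.461 to 0.69), and their differences lay between -0.31 and -0.24. Without FRT/TSHR 17 h array 1 the count was 2, and the Pcna and Mcm5 differences were above 0, at 0.12 and 0.15 for Pcna and 0.13 for Mcm5. Fitting these 6 arrays alone called 2.

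Neighbouring genes of replication and the cell cycle were read in FRTL5 at 17 h by 1 probe set each, where 1.86% of all 4736 genes were called higher and 2.26% lower. Of the helicase and origin genes only Mcm7 and Cdc7 were measured, from 22 listed, and neither passed (1.01 ± 0.30 and 0.43 ± 0.21, adjusted p = 0.0898 and 0.398). Of 12 measured polymerase, clamp loader, ligase and single-strand binding genes 10 were higher and 2 rose, with a median of 0.53. These were Pold1, the catalytic subunit of polymerase delta (1.01 ± 0.25, adjusted p = 0.0333), and Rfc4, a subunit of the loader that places the Pcna clamp (0.71 ± 0.18, adjusted p = 0.0333). Pold3, next in order of p, had 0.38 ± 0.11 (adjusted p = 0.0774). With the replicate block 6 of these 12 passed. Without the FRTL5 arrays numbered 1 only Pold1 did, Rfc4 having an adjusted p of 0.151. With an array left out Pold1 passed in 2 of 6 fits (adjusted p up to 0.163) and Rfc4 in 1 (up to 0.134).

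Among 7 nucleotide supply genes 6 were higher and 2 rose, with a median of 0.30. Mthfd1, an enzyme of the folate pathway that supplies Tyms, rose by 1.05 ± 0.16 (adjusted p = 0.00181), Nme1, a nucleoside diphosphate kinase, by 0.60 ± 0.14 (adjusted p = 0.0266), and Cad, which starts pyrimidine synthesis, had 0.30 ± 0.16 (adjusted p = 0.5). Mthfd1 passed in all 6 fits with an array left out, while Nme1 passed in 1 and had an adjusted p of 0.15 without the FRTL5 arrays numbered 1. A list for copying of chromatin and DNA methylation had 6 genes measured of 16, Asf1b, Slbp, Hdac2, Cbx5, Hmgb2 and H2az1. None of its DNA methylation genes was measured. Of the 6 measured 5 were higher and 1 rose, the histone variant gene H2az1 (1.15 ± 0.26, adjusted p = 0.022). That call was lost without the FRTL5 arrays numbered 1 (adjusted p = 0.0812) and passed in 1 of 6 fits with an array left out. The histone chaperone gene Asf1b had 1.22 ± 0.48 (adjusted p = 0.252) and Cbx5 0.46 ± 0.25 (adjusted p = 0.499).

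The list of S phase entry regulators had a median nearer to 0. It mixes activators and inhibitors, so that median can hide opposite changes. Of 14 measured 9 were higher, 0 passed and the median was 0.11. The inhibitor Cdkn1b had -0.47 ± 0.21 (adjusted p = 0.364), while the inhibitors Cdkn1a, Cdkn1c and Cdkn2b were above 0. The smallest p-values belonged to the cyclins Ccne1, Ccnd3 and Ccnd2, with 0.42 ± 0.17, 0.39 ± 0.16 and 0.43 ± 0.19 (adjusted p = 0.279, 0.285 and 0.324). With 9 DNA repair and damage genes 7 were higher and 0 passed (median 0.16), Ung, Parp1 and Brca1 having 0.62 ± 0.22, 0.32 ± 0.14 and 0.54 ± 0.25 (adjusted p = 0.182, 0.357 and 0.375). All 12 mitosis genes were higher with a median of 0.33, and Cdk1, Top2a and Plk4 rose (1.26 ± 0.26, 1.08 ± 0.23 and 1.43 ± 0.37, adjusted p = 0.0121, 0.0154 and 0.0406). Without the FRTL5 arrays numbered 1 Cdk1 passed, Top2a and Plk4 did not (adjusted p = 0.0696 and 0.0642), and 11 of 12 were higher. With an array left out Cdk1 passed in 5 of 6 fits, Top2a in 3 and Plk4 in 1 (limma, adjusted p up to 0.0536, 0.0603 and 0.172). No gene of these 7 lists was called lower in FRTL5 at 17 h, where 2.26% of all 4736 genes were, and the median over all genes was 0.01. In FRT/TSHR at 17 h 0 genes of the 7 lists passed, as did 0% of all genes, and each list's median was below 0, from -0.41 for mitosis to -0.02 for S phase entry. With none of the FRT/TSHR arrays numbered 1 those medians lay between -0.12 and 0.08.

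**Figure D5:**
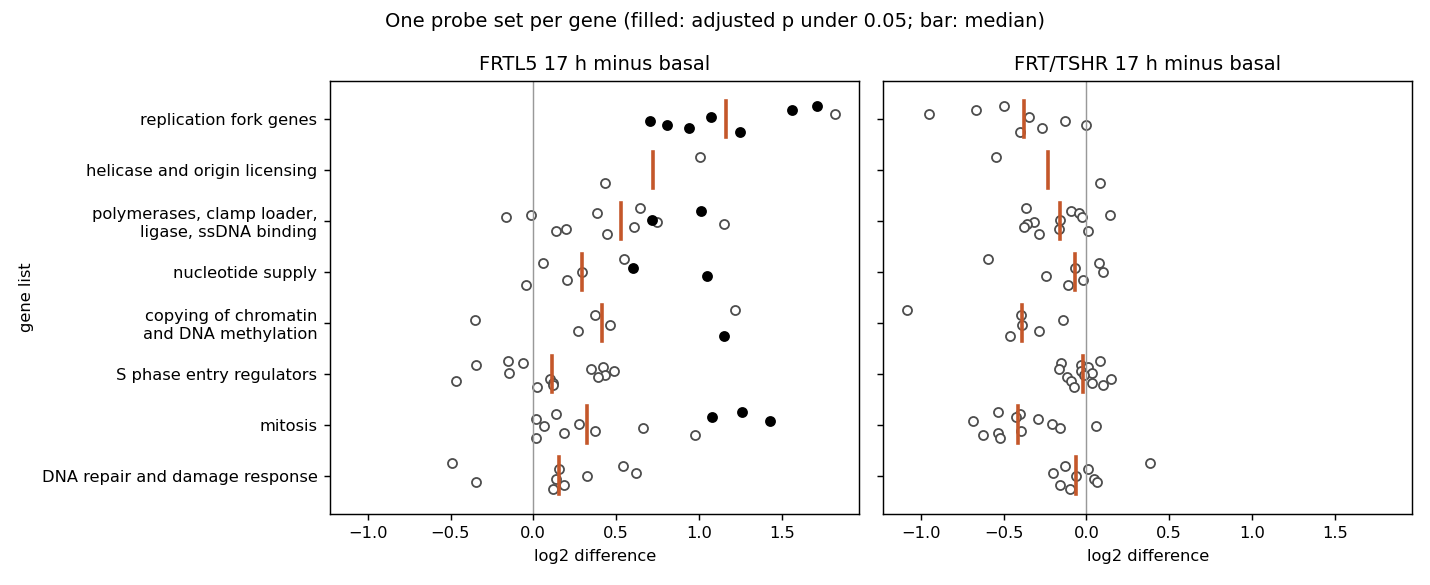
Log2 difference of 17 h minus basal for 1 probe set per gene, FRTL5 left and FRT/TSHR right, with the fork genes in the top row and 7 lists of other genes below. Circles are genes, filled where the adjusted p is under 0.05, and the bar is the row's median. In FRTL5 the fork genes have the highest median and the S phase entry regulators the lowest, at 0.11, and no circle is filled in FRT/TSHR. Fork genes and lists were chosen with earlier results of these data known, so the order of the medians is a description.

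Other genes tracked the fork genes across the FRTL5 arrays. The mean scaled profile of the 8 genes over the 9 FRTL5 arrays correlated above 0.9 with 60 of 4728 other genes, which is a description over points that share 3 groups. The 8 nearest were Acat2 (Pearson r = 0.988), Ahcy (0.983), Slc35b1 (0.983), Tkt (0.981), Fdps (0.976), Mcm7 (0.9752), Kcnk1 (0.974) and Ddah1 (0.971). Acat2 and Fdps are enzymes of the sterol pathway and Tkt is the transketolase of the pentose phosphate pathway, while Mcm7 is another subunit of the helicase ring. Over the 9 FRT/TSHR arrays the same genes had r of 0.836, 0.71, 0.317, 0.491, 0.743, 0.916, 0.158 and 0.466 in that order, so Mcm7 stayed closest. The 8 nearest genes there were Kifc1 (0.981), Pola2 (0.981), Dut (0.973), Fen1 (0.946), Rpa2 (0.941), Nae1 (0.939), Mdh2 (0.933) and Nefh (0.927). Of these Pola2, Fen1 and Rpa2 work at the fork, as a polymerase alpha subunit, a flap nuclease and a single-strand binding protein. No fork probe set passed between the times of FRT/TSHR, and its arrays numbered 1 at 30 min and 17 h had medians of -0.84 and -0.80 against basal. The part of single arrays in the FRT/TSHR correlations was not tested. The sets of 8 nearest genes from the FRTL5 and the FRT/TSHR arrays shared 0 genes, and those by Pearson and by Spearman correlation in FRTL5 shared 1.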

How the data were processed

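RNA of 18 cultures (6 groups of 3) was hybridised to 1 Affymetrix array each. The authors summarised the probes to log2 signals with RMA, per the submitters' processing notes, in a deposited table of 8799 probe sets; settings and version are not given in the sources used here. After 59 control probe sets were dropped, 8740 were fitted with limma 3.58.1 in R 4.3.3, with a mean per group over all arrays, two-sided tests and Benjamini-Hochberg adjustment within each of 10 comparisons. The annotation gave 1 symbol for 7006 probe sets, several for 308 and none for 1426. In lists a gene is represented by the probe set of highest mean signal. Fork genes, lists and tests were chosen with earlier results of these data known. All fork probe sets are described, and from each list up to 3 genes with the smallest p in FRTL5 at 17 h are named. Residuals of arrays with the same number correlated within a line in all 18 pairs (0.148 to 0.798, median 0.449). Over 36 same-line pairs with different numbers the range was -0.639 to 0.628 (median -0.293). In FRTL5, 30 min array 2 correlated more with 17 h array 3 (0.628) than with 17 h array 2 (0.233). FRTL5 30 min array 3 did so with 17 h array 2 (0.611) over 17 h array 3 (0.148). Whether the number pairs arrays 2 and 3 of these groups is therefore not settled. Across lines, residuals of arrays with the same number correlated less and not in every pair (-0.217 to 0.420 over 27, median 0.184). The replicate block was the number within each line, or the number alone for comparisons between lines at 1 time. Alternatives were the arrays compared alone, the block, quantile normalization, median centring, a signal filter, trend and robust moderation, array weights, each array left out, and none of a line's arrays numbered 1. Motifs were counted in RefSeq windows (GRCr8).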

Additional observations from a re-analysis of the deposited data

Results flagged for a closer look

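For 4 fork probe sets the 17 h effect of TSH differed between the lines by the test of that difference (limma, adjusted over 8740 probe sets). The effect in FRT/TSHR minus that in FRTL5 was -2.571 for Pcna (M24604_g_at, adjusted p = 0.0174), -1.421 for Prim1 (AJ011608_at, adjusted p = 0.0233), -1.21 for Tyms (adjusted p = 0.0111) and -1.654 for Dnmt1 (AB012214_s_at, adjusted p = 0.0285), all on the log2 scale. With none of the FRT/TSHR arrays numbered 1, Pcna and Prim1 still passed (adjusted p = 0.0433 and 0.0451), and Tyms and Dnmt1 did not (adjusted p = 0.0813 and 0.212).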

How the results depend on the processing

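Counts of fork probe sets called moved with the setting, while each called difference kept its direction in all fits run; the cause was not tested. Fitting only the arrays compared called 7 in FRTL5 at 17 h, 2 between the lines at 17 h and 1 for the difference of 17 h effects. That last count was 12 with the replicate block and 13 with array weights, and the block otherwise gave 14 in FRTL5 at 17 h against basal and against 30 min, 8 between the lines at basal and 7 at 17 h. With an array left out the counts were 4 to 8 for FRTL5 17 h against basal, 4 to 10 against 30 min, 2 to 6 between the lines at 17 h, 5 to 8 at basal and 2 to 10 for the difference of effects. Of 2196 values of single probe sets 107 changed sign, of which 0 were called. With none of the FRT/TSHR arrays numbered 1, the 17 h differences of that line were 0.004114 for Pcna M24604_at, 0.1167 for Prim1 U67994_at, 0.00234 and 0.005145 for Prim2 and 0.184 for Pola1. Its 30 min differences were then 0.0311 for Tyms and -0.03248 for Dnmt1 D64060_s_at, and the 17 h differences between the lines 0.1158 and 0.1486 for Pcna and 0.1306 for Mcm5. Dnmt1 D64060_s_at in FRT/TSHR at 30 min was -0.00633 after quantile normalization, -0.01935 after median centring and -0.002867 with array weights. With an array left out it ran from -0.05077 to 0.0609. In FRT/TSHR at 17 h that range was -0.6337 to 0.07192 for Prim1 U67994_at, -0.1524 to 0.172 for Pola1 and -0.1184 to 0.04587 for Dnmt1 D64060_s_at. Between the lines at 17 h it was -0.6644 to 0.1158 and -0.6645 to 0.1486 for Pcna and -0.6556 to 0.1306 for Mcm5. Detection over background was not measured, and 3 arrays a group limit the precision.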
